A study of Mus musculus with 15 samples.

Results

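The oxidative phosphorylation genes described here are 91 rows of a count table of 50508 gene symbols, 84 of them nuclear genes and 7 encoded by the mitochondrial genome (symbols that start with mt-). They were found by the start of their symbols (Ndufa, Ndufb, Ndufc, Ndufs, Ndufv, Uqcr, Cox4i, Cox5, Cox6, Cox7, Cox8 and Atp5, or mt-Nd, mt-Co, mt-Cytb and mt-Atp), which 109 rows matched. Of these rows, 7 pseudogene symbols were dropped, and 5 nuclear and 6 mt- rows were dropped for a mean of fewer than 10 counts per library. Just outside that limit lay Atp5l, a synthase subunit, with a mean of 8.6 counts, and Ndufa4l2, a relative of the complex IV subunit Ndufa4, with 7.53. Just inside it lay Cox6a2 with 10.5 and Cox4i2 with 12.0. The rule uses abundance over all libraries and no comparison between groups. By role the nuclear members are 36 complex I subunits (7 core and 29 accessory), 8 subunits of complex III, 15 of complex IV, 14 of the ATP synthase and 8 complex I assembly factors that share the Ndufa letters. The remaining 3 are the supercomplex factor Cox7a2l, and Atp5s and Atp5sl, which carry the prefix of the synthase without being subunits of it.

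Oxidative phosphorylation passes electrons from NADH and succinate along the respiratory complexes of the inner mitochondrial membrane to oxygen, and the proton gradient that builds up drives the ATP synthase. Complex I oxidizes NADH, complex III hands electrons to cytochrome c, and complex IV reduces oxygen. The subunits come from both genomes: mitochondrial DNA is transcribed from both strands as long precursors that hold its rRNAs, tRNAs and mRNAs, whereas the nuclear subunits are transcribed gene by gene and imported. In myeloid cells the balance between glycolysis and respiration is known to differ between activation states.

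RNA had been measured in myeloid cells sorted from tumours of the mouse Lewis lung carcinoma line (LLC) that had grown for 10 days. The line was either Mock-LLC or SULT2B1b-LLC, the latter carrying the sulfotransferase SULT2B1b, which adds sulfate to cholesterol and oxysterols. From each tumour came Ly6Chigh cells that were also CD11c+ and MHC-II+, and Ly6Clow cells, which gave 4 groups: Ly6Clow from Mock-LLC (n = 4 tumours) and from SULT2B1b-LLC (n = 3, tumours 2, 3 and 4), and Ly6Chigh from Mock-LLC (n = 4) and from SULT2B1b-LLC (n = 4). The labels give no vector, strain, sex or age of the mice, do not say whether the lines were single clones, and number the tumours without saying that each grew in its own mouse, so a p-value here speaks of the scatter among these libraries, which may be partly technical.

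Depth separated the populations, with 19792494 to 39284008 counts per library in Ly6Clow cells and 2617878 to 10626954 in Ly6Chigh cells. Levels below are CPM, counts scaled to the same TMM-adjusted library size, as mean ± SD, and a fold or log2 fold change is the fitted value from edgeR's quasi-likelihood test on all 13800 genes that passed its count filter, with its standard error (SE). The threshold was a Benjamini-Hochberg adjusted p under 0.05. All 91 members passed the filter. The shallowest library, Ly6Chigh of SULT2B1b-LLC tumour 1 (2617878 counts), stood apart, with 9.76% of its counts on unnamed gene models (Gm and Rik symbols) against 1.15% to 1.66% in the other 7 Ly6Chigh libraries. The sort showed in Ly6c2, which codes for Ly6C and had 971 to 2111 CPM in Ly6Chigh and 19.3 to 34.4 in Ly6Clow libraries. The 5 T, B and NK cell markers summed to between 0 and 12.5 CPM, and the 4 tumour or epithelial markers to between 0 and 24.8. Sult2b1, the gene the SULT2B1b-LLC line carries, had 9.31 to 19.1 CPM in Ly6Chigh and 1.12 to 2.39 in Ly6Clow libraries of SULT2B1b-LLC, above the 0 to 0.510 CPM of all Mock-LLC libraries; whether these reads come from tumour cells or myeloid cells cannot be told apart. In bulk RNA, fewer cells of a type and less RNA per cell cannot be told apart.

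Of the 13 mitochondrial mRNA genes, 6 had almost no counts, and their sequences are shown first because they bound what the mt- values can say. The genes mt-Co2, mt-Atp8, mt-Atp6, mt-Co3, mt-Nd3 and mt-Nd4l lie side by side on the mitochondrial genome (chromosome M, bases 7013 to 10173, GRCm38), and mt-Co3 and mt-Nd3 had 1 count each over all 15 libraries while the other 4 had none. In GENCODE mouse release 21, a stretch of chromosome 1 (bases 24611535 to 24616197, minus strand) carries 7 unprocessed pseudogenes of mitochondrial origin. They copy mt-Co2, mt-Atp6, mt-Co3, mt-Nd3 and mt-Nd4l, and parts of mt-Co1 and mt-Nd4 on either side, which kept their counts. The copy of mt-Co2, Gm28661, was identical over all 681 of its bases, and those of mt-Atp6 (678 bases), mt-Co3 (783) and mt-Nd4l (294) were identical too. That of mt-Nd3, Gm28438, matched at 344 of 345 bases. As an example of such a pair, the first 75 bases of mt-Co2 and of its copy are given, 75 nt being the read length per the labels. They are followed by the start of mt-Nd3 and of its copy, where capitals mark the differing base, T3C, counted from the first base of the transcript. The last pair is a stretch of mt-Nd1, a gene that kept its counts, beside Gm48258 on chromosome 12, where capitals mark the 7 differing bases.
mt-Co2, chrM:7013-7087, plus strand: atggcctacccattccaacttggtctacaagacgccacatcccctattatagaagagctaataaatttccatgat
Gm28661, chr1:24615491-24615565, minus strand: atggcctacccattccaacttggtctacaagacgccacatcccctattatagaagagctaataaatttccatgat
mt-Nd3, chrM:9459-9533, plus strand: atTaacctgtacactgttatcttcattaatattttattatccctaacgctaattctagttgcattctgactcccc
Gm28438, chr1:24613045-24613119, minus strand: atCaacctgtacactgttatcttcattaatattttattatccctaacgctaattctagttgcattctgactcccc
mt-Nd1, chrM:3394-3468, plus strand: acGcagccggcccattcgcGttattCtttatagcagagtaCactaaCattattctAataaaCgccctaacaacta
Gm48258, chr12:59262674-59262748, plus strand: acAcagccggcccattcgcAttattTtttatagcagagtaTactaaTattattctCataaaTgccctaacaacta

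For each mt- gene, the share of its 75-base windows found unchanged in the transcript of another annotated gene was computed. It was 97.8% to 99.9% in mt-Co2, mt-Atp6, mt-Co3, mt-Nd3 and mt-Nd4l. In mt-Nd4 it was 61.5%, since its first 876 bases equal Gm28439, and in mt-Co1 39.8%; Gm29216 matches mt-Co1 at 482 of the 483 bases compared. Shares were 5.71% in mt-Nd2 and 1.66% in mt-Nd5, and no window of mt-Nd1, mt-Nd6 or mt-Cytb was shared. Among the 6 rows without counts, mt-Atp8 differs, with 0 of 130 windows shared; it lies between mt-Co2 and mt-Atp6, whose copies on chromosome 1 are 233 bases apart against 230 bases between the genes themselves, and the bases of that gap were not read here. The copies were also nearly empty, with 4 to 28 counts each over all libraries, except Gm28438 with 2353. How the authors treated reads that fit several places is not given in the sources used here, and its part in the zeros was not tested. The 7 mt- members are thus those of complex I (mt-Nd1, mt-Nd2, mt-Nd4, mt-Nd5, mt-Nd6), the cytochrome b of complex III (mt-Cytb) and the catalytic subunit of complex IV (mt-Co1), with no subunit of the synthase.

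**Figure D1:**
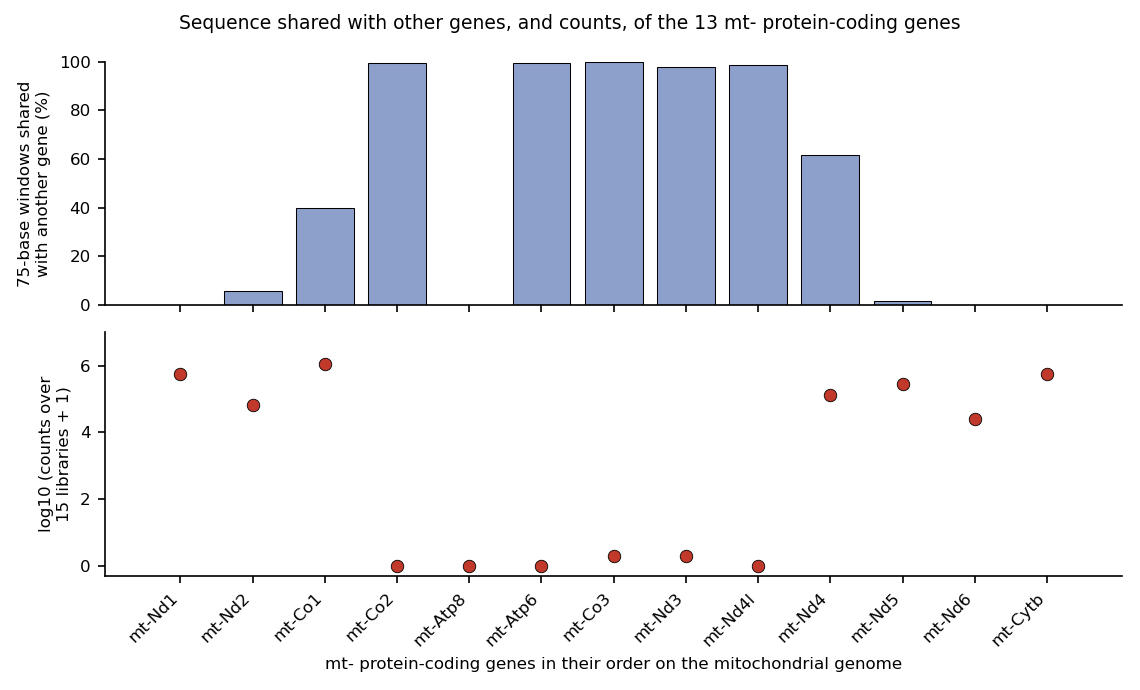
Upper plot, percent of the 75-base windows of each of the 13 mt- protein-coding genes that occur in another annotated transcript; lower plot, log10 of the counts over 15 libraries plus 1. The 6 genes at or near 0 stand side by side, and 5 of them have shares of 97.8% or more while mt-Atp8 has 0.

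By library, the 7 mt- genes had from 0.798 to 2.53 times the counts of the 84 nuclear members. As a share of all counts, the mt- members held 1.19%, 0.793%, 0.856% and 1.04% in the 4 Ly6Clow libraries of Mock-LLC. The 3 Ly6Clow libraries of SULT2B1b-LLC had 0.825%, 0.782% and 0.787%. In Ly6Chigh cells the share was 1.41%, 1.93%, 1.29% and 1.93% in Mock-LLC and 0.760%, 0.886%, 0.998% and 0.885% in SULT2B1b-LLC. The Ly6Chigh cells of Mock-LLC thus lay above every library of the other 3 groups, which overlapped. The nuclear members went the other way between those populations, from 0.910% to 0.994% in Ly6Clow of Mock-LLC, 0.892% to 0.907% in Ly6Clow of SULT2B1b-LLC, 0.765% to 0.804% in Ly6Chigh of Mock-LLC and 0.744% to 0.979% in Ly6Chigh of SULT2B1b-LLC. The ratio of mt- to nuclear counts was 2.09 ± 0.445 (SD, n = 4) in Ly6Chigh of Mock-LLC, 1.03 ± 0.111 (n = 4) in Ly6Chigh of SULT2B1b-LLC, 1.02 ± 0.187 (n = 4) in Ly6Clow of Mock-LLC and 0.888 ± 0.0266 (n = 3) in Ly6Clow of SULT2B1b-LLC. The lowest ratio in Ly6Chigh of Mock-LLC was 1.61 and the highest elsewhere 1.21. These sums are descriptions and carry no test.

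**Figure D2:**
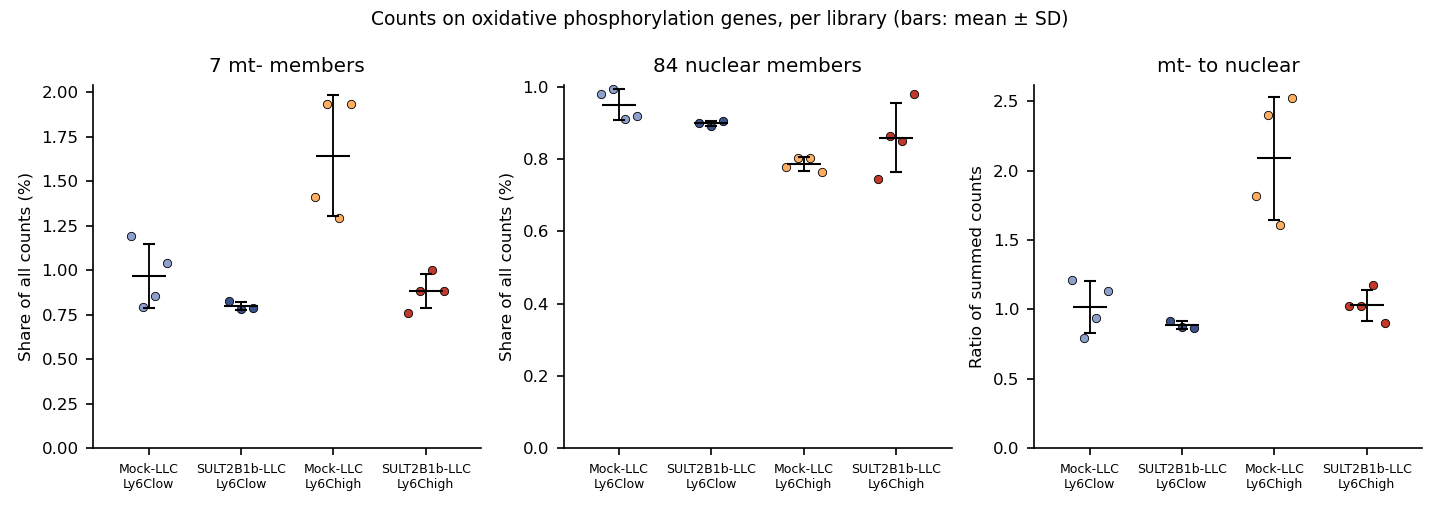
Percent of all counts on the 7 mt- members and on the 84 nuclear members, and the ratio of the sums, for each of 15 libraries (points) by group, with mean and SD (bars). The 4 Mock-LLC Ly6Chigh libraries have ratios of 1.61 to 2.53, above the 11 others.

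In Ly6Chigh cells, which the study compared between tumour types, 5 of the 7 mt- genes were lower and 2 of the 84 nuclear members higher in SULT2B1b-LLC than in Mock-LLC. Over all genes tested 0.725% were lower and 0.891% higher in this comparison, 1.62% in all. The median log2 fold change was -0.85 over the mt- members and 0.18 over the nuclear ones, beside 0.03 over all genes tested. Among the mt- genes the largest fitted change was in mt-Nd1 (chromosome M, 2751 to 3707), a core subunit of the membrane arm of complex I. It had 3077, 4751, 2793 and 3696 CPM in Mock-LLC and 1581, 1661, 1951 and 2045 in SULT2B1b-LLC. Every SULT2B1b-LLC library was below every Mock-LLC library, and the difference was -0.98 (SE 0.17, 1.98-fold, adjusted p = 0.0122). Likewise mt-Cytb (chromosome M, 14145 to 15288) had 2587, 3717, 3224 and 3671 CPM against 1156, 1781, 1840 and 2163, again with no overlap (-0.93, SE 0.18, adjusted p = 0.0208). The proton-pumping subunit mt-Nd5 had 1464, 1878, 1297 and 1920 CPM against 908, 924, 1012 and 783 (-0.85, SE 0.16, adjusted p = 0.0150).

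The other mt- genes pointed the same way with less separation. In mt-Nd4, of the same proton-pumping family as mt-Nd5, 603, 886, 612 and 795 CPM in Mock-LLC stood against 361, 363, 404 and 470, without overlap (-0.86, SE 0.18, adjusted p = 0.0296). The complex IV subunit mt-Co1, the most abundant member, had 5784, 8092, 4011 and 8083 CPM against 3279, 3929, 4126 and 3282. Its groups overlapped, since the Mock-LLC library of tumour 3 lay below 1 library of SULT2B1b-LLC (-0.83, SE 0.19, adjusted p = 0.0371). In mt-Nd2 and mt-Nd6 the differences were both -0.53 (SE 0.22), with adjusted p-values of 0.248 and 0.259, so neither passed. In mt-Nd6, which is encoded on the opposite strand of the mitochondrial genome from the rest, the groups still did not overlap, with 94.6 to 143 CPM in Mock-LLC and 68.2 to 90.5 in SULT2B1b-LLC. In all, 5 of the 7 mt- genes were without overlap, beside 2.75% of all genes tested that lay lower without overlap. The 2 mitochondrial rRNAs, which are not members, had a summed level of 20080, 27678, 10497 and 21902 CPM in Mock-LLC and 11785, 11422, 12192 and 9270 in SULT2B1b-LLC. The difference was -0.87 (SE 0.21, adjusted p = 0.0524) for mt-Rnr2 and -0.55 (SE 0.23, adjusted p = 0.259) for mt-Rnr1, so neither passed the threshold.

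**Figure D3:**
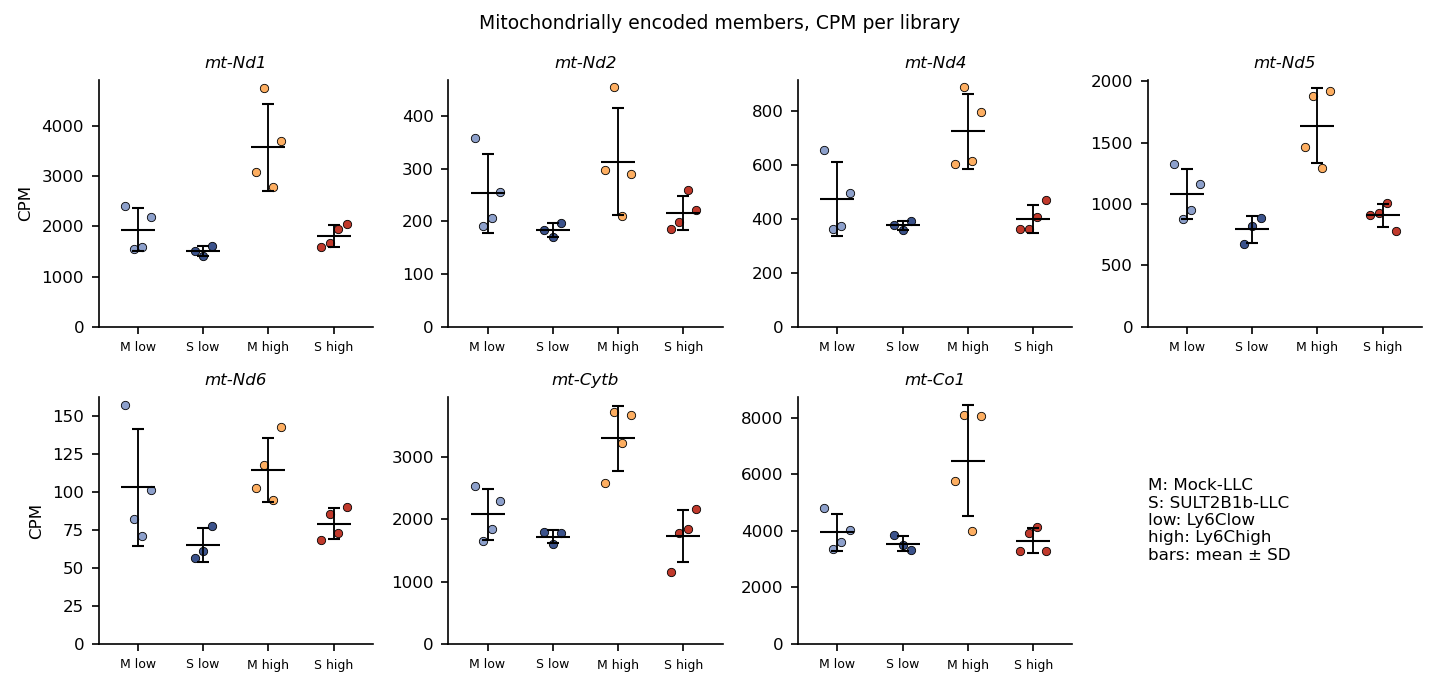
CPM of the 7 mitochondrially encoded members in each library (points) by group, with mean and SD (bars; axes start at 0). For mt-Nd1 the 4 Mock-LLC Ly6Chigh libraries sit between 2793 and 4751 CPM, above all 11 others, which reach 2406.

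Leaving out the SULT2B1b-LLC library that stood apart, tumour 1, left 4 mt- genes lower and the same nuclear pair higher, with mt-Co1 lost. The mt- count fell to 2, mt-Nd1 and mt-Nd5, without Mock-LLC Ly6Chigh tumour 2, and to 3 without SULT2B1b-LLC Ly6Chigh tumour 2, or without SULT2B1b-LLC Ly6Clow tumour 3 or 4. With only the 8 Ly6Chigh libraries in the fit, no member passed, and 3 of all genes did. Across the 23 other settings tried, mt-Nd1 kept its call in 22, mt-Nd5 in 22, mt-Cytb in 21, mt-Nd4 in 16 and mt-Co1 in 8, and the log2 fold change of mt-Nd1 ran from -1.08 to -0.81. Markers moved with these groups too: 2 of 4 fibroblast markers (Pdgfra and Dcn) were higher in SULT2B1b-LLC, the list summing to 188 to 358 CPM against 31.6 to 152, and 4 of 7 macrophage markers (C1qa, C1qb, C1qc and Adgre1) were higher, the list summing to 10362 to 14293 CPM against 8292 to 9996. Of 3 tested tumour or epithelial markers Krt8 was higher, with 0 counts in all 4 Mock-LLC libraries and 2, 51, 29 and 97 in SULT2B1b-LLC, at least 78.5-fold by a floor of 3 counts over the group. Another of the 3 lay below 0, at -3.14, without passing. This list summed to 0 to 10.4 CPM in Mock-LLC and 4.17 to 24.8 in SULT2B1b-LLC, which overlap. Of 6 tested neutrophil markers Cxcr2 was lower, with 5.45, 10.9, 0 and 1.36 CPM in Mock-LLC and 0, 0, 0 and 0.104 in SULT2B1b-LLC, while the list summed to 65.7 to 144 and 103 to 145 CPM. Their part in the mt- difference was not tested.

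The nuclear members of the same libraries showed no such fall: none was lower, and 72 of 84 had a log2 fold change above 0, where 7193 of 13800 genes did. The clear change was in Ndufa9 (chromosome 6, 126821721 to 126849136, minus strand), an accessory subunit at the joint of the membrane and matrix arms of complex I. It had 73.8, 46.8, 56.1 and 48.6 CPM in Mock-LLC and 101, 102, 98.1 and 94.7 in SULT2B1b-LLC. The groups did not overlap, and the SULT2B1b-LLC libraries lay within the 83.5 to 107 CPM of Ly6Clow cells (0.81, SE 0.15, 1.76-fold, adjusted p = 0.0148). It kept its call in 21 of 23 other settings. The span of the gene, introns included, overlaps that of 1700018A23Rik on the opposite strand by 2801 bases, and the kit does not mark strand. Whether exons overlap was not examined.

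The other nuclear gene past the threshold, Cox6a2, is a low-count case. This isoform of a complex IV subunit is known from heart and skeletal muscle, where it takes the place of Cox6a1. It had 0 counts in all 4 Mock-LLC libraries and 3, 7, 8 and 5 in SULT2B1b-LLC, which against a floor of 3 counts over the group makes it at least 10.1-fold higher (adjusted p = 0.0299). The call was lost without SULT2B1b-LLC Ly6Clow tumour 2, 3 or 4 or Mock-LLC Ly6Chigh tumour 3, with no filter and with the tumour number as a block. The span of its gene, introns included, overlaps that of Itgad on the opposite strand by 953 bases. Strand is not marked by the kit, and whether exons of the pair overlap was not examined. Whether their reads can be told apart is therefore not known. Itgad itself had 20 counts in 1 Mock-LLC library, 13 in 1 SULT2B1b-LLC library and 0 in the other Ly6Chigh libraries. Just short of the threshold lay Atp5j, coupling factor 6 in the stalk of the synthase, chosen after its values were seen. It had 119, 109, 98.0 and 126 CPM in Mock-LLC and 172, 157, 132 and 182 in SULT2B1b-LLC, without overlap (0.51, SE 0.12, adjusted p = 0.0531). The span of Atp5j overlaps that of Gabpa on the opposite strand by 701 bases, with the same limit. In all, 4 nuclear members were higher without overlap, beside 2.78% of all genes tested.

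By complex, the nuclear medians in this comparison were close together: 0.13 for the 7 core subunits of complex I, 0.19 for its 29 accessory subunits, 0.13 for complex III, 0.19 for complex IV and 0.19 for the synthase, whose 14 members all lay above 0. Without SULT2B1b-LLC Ly6Chigh tumour 4, the library of its group with the highest nuclear share, the median over all nuclear members was 0.06 in place of 0.18.

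In Ly6Clow cells no member passed between the tumour types, by edgeR, DESeq2 or limma-voom, where 0.638% of all genes did by edgeR. At an unadjusted p under 0.05 there were 0 of 84 nuclear and 2 of 7 mt- members, beside 3.74% of all genes. The median log2 fold change was -0.36 over the mt- and -0.07 over the nuclear members, beside -0.02 over all genes. For mt-Nd1, 2406, 1549, 1595 and 2185 CPM in Mock-LLC stood beside 1517, 1407 and 1603 in SULT2B1b-LLC, which overlap (-0.36, SE 0.19, adjusted p = 1.00). Of the nuclear members 3 lay higher and 6 lower without overlap, beside 7.59% and 8.55% of all genes, and no mt- gene did. The lowest mt- log2 fold change was that of mt-Nd6, at -0.66 (SE 0.24, adjusted p = 0.749), and that of mt-Nd5 was -0.45 (SE 0.17, adjusted p = 0.790). All 7 lay below 0, and mt- libraries of Mock-LLC tumours 1 and 4 were above those of tumours 2 and 3 in every mt- gene.

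Between populations in Mock-LLC, the mt- and nuclear members moved in opposite directions. Ly6Chigh cells had 5 of 7 mt- genes higher, where 3.55% of all genes were, and 11 of 84 nuclear members lower, where 4.86% of all genes were (8.41% in either direction). No nuclear member was higher. The medians were 0.62 over the mt- members and -0.36 over the nuclear ones, beside -0.08 over all genes tested, and 75 of 84 nuclear members lay below 0. Without overlap between the groups, 35 nuclear members lay lower, beside 15.8% of all genes, and 2 mt- genes higher, beside 6.46%. This comparison and that of tumour types in Ly6Chigh cells share the 4 Ly6Chigh libraries of Mock-LLC, so they are not independent.

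The mt- genes past the threshold were those of the comparison above. Against the Ly6Clow values already given, mt-Nd1 was higher by 0.89 (SE 0.17, 1.85-fold, adjusted p = 0.00517) with no overlap. For mt-Cytb, Ly6Clow had 2542, 1652, 1840 and 2287 CPM, all under the 2587 to 3717 of Ly6Chigh (0.67, SE 0.18, adjusted p = 0.0313). For mt-Co1, Ly6Clow had 4824, 3356, 3594 and 4033 CPM, and the groups overlapped (0.72, SE 0.19, adjusted p = 0.0266). Overlapping too were mt-Nd4 (0.62, SE 0.18, adjusted p = 0.0457) and mt-Nd5 (0.60, SE 0.16, adjusted p = 0.0256). The Ly6Clow library of tumour 1 was the highest of its group for all 7 mt- genes. With the tumour as a block, which the labels allow within a tumour type, 2 mt- genes passed, mt-Nd1 and mt-Cytb, in place of 5.

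Of the nuclear members that were lower, 5 belong to complex IV, 3 to complex I and 3 to the synthase. None of the 7 core subunits of complex I or the 8 subunits of complex III is among them, but sets this small cannot be told apart by a count of 0. The median was -0.35 in complex III, with 4 of 8 lower without overlap, and -0.12 in the core subunits, with 0 of 7. Of the 42 members with transcripts of up to 861 bases 8 were lower (median -0.45), and 3 of 41 longer ones (median -0.33). The part of transcript length was not tested. In Cox6c (chromosome 15, 35925886 to 35938246, minus strand), an accessory subunit of complex IV, Ly6Clow had 137, 138, 123 and 129 CPM and Ly6Chigh 75.3, 65.2, 68.3 and 77.4. The groups were far apart (-0.88, SE 0.16, adjusted p = 0.00303), and the call held in all 23 other settings. The span of Cox6c overlaps that of Vps13b (14666 counts over all libraries) on the opposite strand by 5344 bases, with the same limit as for Cox6a2. Of its windows 10.7% occur in other genes. Ndufa9 had 92.1, 107, 83.5 and 90.0 CPM in Ly6Clow, above the Ly6Chigh values given (-0.72, SE 0.15, adjusted p = 0.00657). Atp5g3 codes for the subunit of the rotating c-ring and had 112, 111, 97.7 and 92.2 CPM in Ly6Clow against 53.0, 80.9, 63.6 and 57.9 (-0.69, SE 0.14, adjusted p = 0.00739). Ly6Chigh cells of SULT2B1b-LLC had 85.6, 86.2, 84.7 and 99.7 CPM, and the highest of these overlapped Ly6Clow of Mock-LLC. They lay above Ly6Chigh of Mock-LLC without overlap, although that difference did not pass (0.48, SE 0.14, adjusted p = 0.102).

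The remaining nuclear members past the threshold are given as group means. Atp5e, the epsilon subunit of the synthase, was 169 ± 22.7 CPM (SD, n = 4) in Ly6Clow and 98.6 ± 20.3 in Ly6Chigh (-0.78, SE 0.20, adjusted p = 0.0282). Ndufa6, an accessory subunit of complex I, was 126 ± 8.15 against 77.1 ± 9.06 (-0.70, SE 0.17, adjusted p = 0.0208), and Ndufb11, another, 74.7 ± 2.33 against 50.4 ± 7.56 (-0.57, SE 0.14, adjusted p = 0.0186). Among small complex IV subunits, Cox7c was 67.7 ± 3.59 against 43.6 ± 6.51 (-0.63, SE 0.17, adjusted p = 0.0269), Cox7a2 144 ± 8.34 against 102 ± 10.4 (-0.49, SE 0.14, adjusted p = 0.0382) and Cox8a 228 ± 21.7 against 170 ± 10.4 (-0.43, SE 0.10, adjusted p = 0.0191). In Cox7c, 50.4% of windows occur in other genes, so its counts are uncertain. Atp5a1, the alpha subunit, was 711 ± 46.7 against 534 ± 34.3 (-0.41, SE 0.09, adjusted p = 0.00927). The eleventh is Cox6a2, with 16, 7, 4 and 30 counts in Ly6Clow and 0 in Ly6Chigh, at least 5.93-fold lower by the same floor. Cox6a2 reached the mean of 10 counts through the deeper Ly6Clow libraries, so its place among the lower members is partly set by the choice of members; without it the count was 10 of 83. Without overlap and yet short of the threshold were, among others, Cox6a1 (-0.54, SE 0.16, adjusted p = 0.0521) and Cox6b1 (-0.42, SE 0.18, adjusted p = 0.172).

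**Figure D4:**
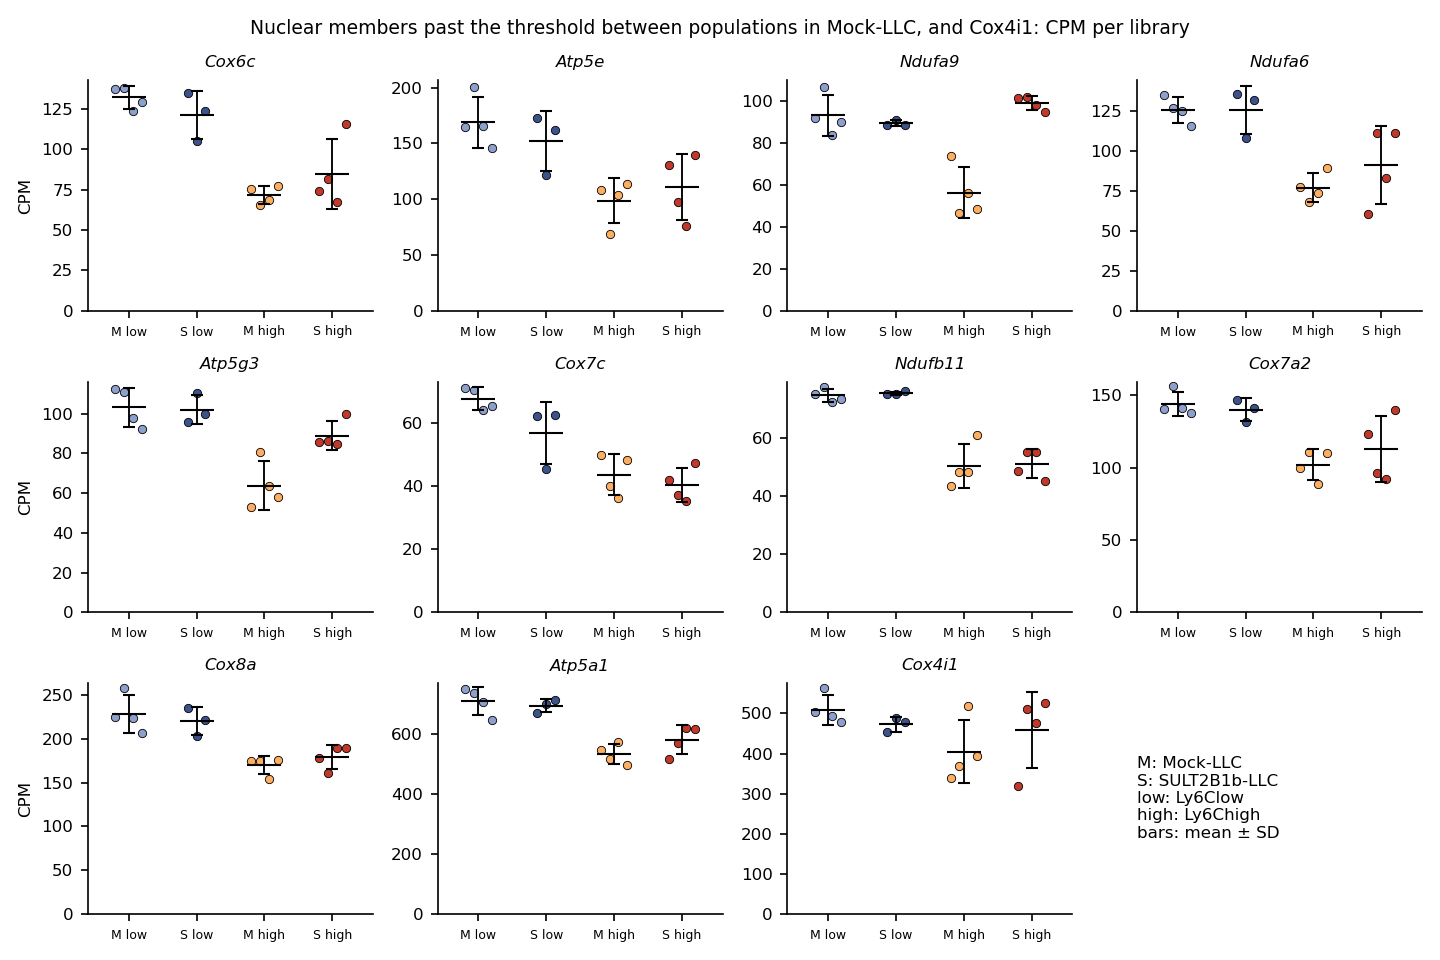
CPM per library (points) by group, with mean and SD (bars; axes start at 0), of 10 nuclear members past the threshold between populations in Mock-LLC, and of Cox4i1, which did not pass. In each of the 10, all 4 Mock-LLC Ly6Chigh libraries lie below all 4 Mock-LLC Ly6Clow libraries; Ndufa9 in SULT2B1b-LLC Ly6Chigh libraries is at 94.7 to 102 CPM.

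Both the nuclear and the mt- counts moved with single libraries. Median-ratio size factors move the median of all genes by 0.13 in this comparison and leave 6 nuclear members lower and all 5 mt- genes higher; the direction of each kind was the same under every scaling tried. The nuclear count was 2 without Ly6Clow tumour 2, 4 without Ly6Clow tumour 1 or 3 or without SULT2B1b-LLC Ly6Clow tumour 4, 5 without Ly6Clow tumour 4, SULT2B1b-LLC Ly6Clow tumour 3 or Ly6Chigh tumour 1 or 3, 6 without SULT2B1b-LLC Ly6Clow tumour 2 or Ly6Chigh tumour 2, and 7 without SULT2B1b-LLC Ly6Chigh tumour 2. The mt- count was 1 without Ly6Clow tumour 2 or 3 and 2 without Ly6Chigh tumour 2 or 4. Markers of several cell types moved with the populations: 4 of 5 tested eosinophil markers were lower in Ly6Chigh cells, 5 of 7 macrophage markers lower and 4 of 5 monocyte markers higher, while of 6 tested neutrophil markers 1 was higher and 1 lower. Higher too were 1 of 6 dendritic cell markers (Cd209a) and 1 of 4 fibroblast markers (Col1a1). Of 3 tested tumour or epithelial markers 1 (Krt8) was lower. The eosinophil list summed to 198 to 268 CPM in Ly6Clow and 3.72 to 55.3 in Ly6Chigh of Mock-LLC, where Prg2, Epx, Il5ra and Ear1 were at 0, the neutrophil list to 502 to 794 and 65.7 to 144, the macrophage list to 15310 to 18828 and 8292 to 9996, and the monocyte list to 1655 to 2044 and 3762 to 5474. Their part in the difference was not tested.

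In SULT2B1b-LLC no member passed between the populations by edgeR, where 2.64% of all genes did (1.1% higher and 1.54% lower); at an unadjusted p under 0.05 there were 15 nuclear (17.9%) and 0 mt- members, beside 14.8% of all genes. DESeq2 and limma-voom each called 2, Atp5j higher and Ndufb11 lower. The medians were 0.19 over the mt- and -0.14 over the nuclear members, beside -0.03 over all genes; the nuclear one was -0.01 without the library of tumour 1 that stood apart. For mt-Nd1, Ly6Chigh had 1581 to 2045 CPM and Ly6Clow 1407 to 1603, which overlap (0.26, SE 0.19, adjusted p = 0.581). Ndufb11 had 75.2, 75.2 and 76.1 CPM in Ly6Clow and 48.8, 55.4, 55.1 and 45.2 in Ly6Chigh, much as in Mock-LLC (-0.56, SE 0.15, adjusted p = 0.0575). Atp5j had 123, 111 and 107 CPM in Ly6Clow, under all 4 Ly6Chigh libraries (0.50, SE 0.13, adjusted p = 0.0663). Of the nuclear members 12 lay lower and 4 higher without overlap, beside 13.9% and 5.57% of all genes. Cell type markers moved here too. Lower in Ly6Chigh cells were 4 of 5 tested eosinophil, 5 of 7 macrophage and 1 of 6 tested neutrophil markers (Retnlg). Higher were 4 of 5 monocyte, 1 of 6 dendritic cell (Cd209a) and 1 of 4 fibroblast markers (Dcn). Their part in these values was not tested.

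The difference between the tumour types was also tested for whether it differed between the populations. No member passed, by edgeR, where 0.0145% of all genes did, and at an unadjusted p under 0.05 there were 6 nuclear (7.14%) and 3 mt- members, beside 7.14% of all genes. DESeq2 called 2 members, Ndufa9 and Atp5j, both higher. In this difference of log2 fold changes, mt-Co1 was at -0.68 (SE 0.27), mt-Cytb at -0.65 (SE 0.26) and mt-Nd1 at -0.63 (SE 0.25), each with an adjusted p of 0.591. Ndufa9 was at 0.87 (SE 0.22, adjusted p = 0.319). The fall of mt- genes in Ly6Chigh cells is therefore not shown to differ from what happened in Ly6Clow cells. The medians of the difference were -0.52 over mt- members, 0.30 over nuclear members and 0.05 over all genes, with 73 of 84 nuclear members above 0.

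**Figure D5:**
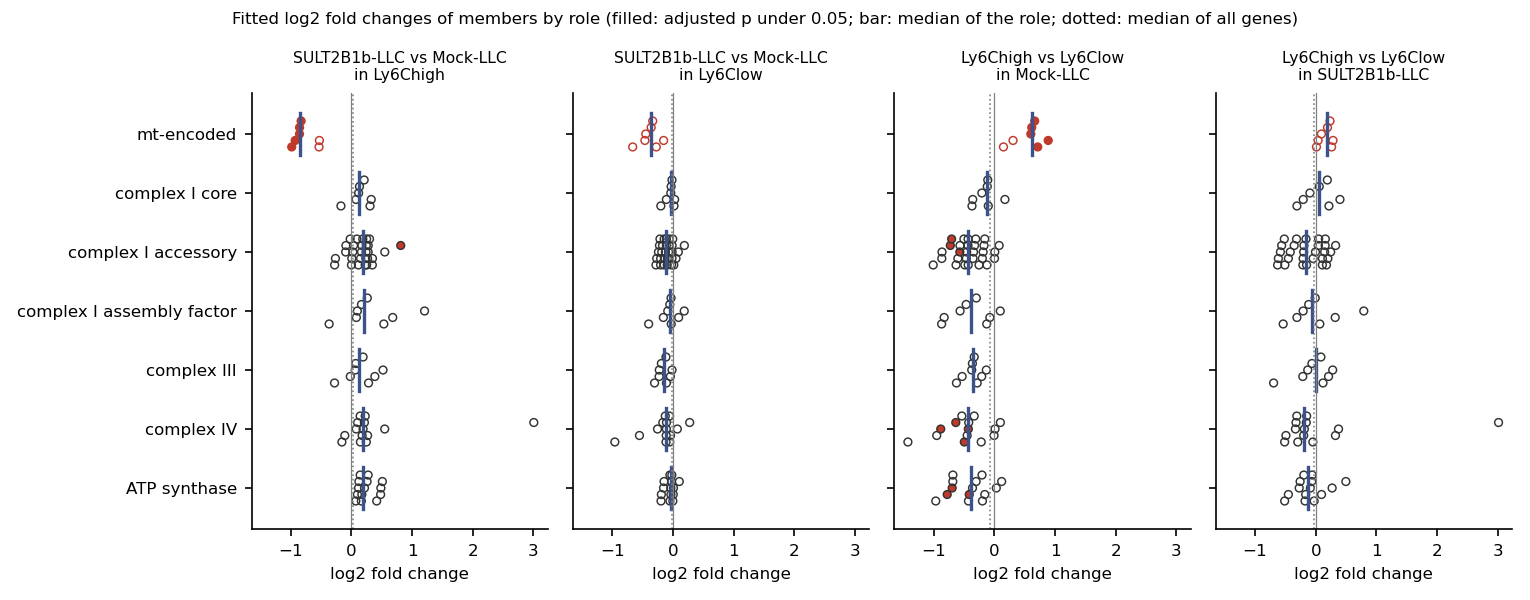
Fitted log2 fold changes of the members by role in 4 comparisons (filled points: adjusted p under 0.05; blue bar: median of the points; dotted line: median of all genes tested). Cox6a2, whose fit is against a group at 0 counts, Cox7a2l, Atp5s and Atp5sl are not drawn; 5 filled mt- points lie left of 0 between tumour types in Ly6Chigh cells and 5 right of 0 between populations in Mock-LLC.

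Levels of the nuclear members spread over a wide range. The mean over all libraries ran from 0.538 CPM (Cox6a2) to 1020 CPM (Atp5b, the catalytic beta subunit of the synthase), with a median of 73.8. Per kilobase of transcript, the highest nuclear levels were those of Cox4i1 with 602 CPM per kb and Atp5b with 532, beside 2894 for mt-Co1, 2356 for mt-Nd1 and 1959 for mt-Cytb. The highest of complex III was Uqcrc1, a core protein, with 237 CPM per kb, that of the accessory subunits of complex I Ndufa2 with 186, and that of its assembly factors Ndufaf8 with 23.7. None of Cox4i1, Atp5b, Uqcrc1 and Ndufa2 passed in any comparison by the main fit. Between populations in Mock-LLC, Atp5b was called by limma-voom and with the tumour as a block. Cox4i1 had 340 to 518 CPM in Ly6Chigh of Mock-LLC, 319 to 525 in Ly6Chigh of SULT2B1b-LLC and 452 to 564 in Ly6Clow. Only 5 nuclear members had a mean under 5 CPM, and 4 of them are isoforms known from other tissues.

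The isoform pairs of complex IV were read almost wholly from the general form. Cox4i2, known from lung, had 0.943 CPM on average against 460 for Cox4i1, and its Ly6Chigh values were 1.20, 0, 0 and 0 CPM in Mock-LLC and 1.14, 2.87, 5.71 and 0 in SULT2B1b-LLC, which overlap (adjusted p = 0.383). Cox6b2, known from testis, had 1.44 CPM against 192 for Cox6b1. Cox7a1, the heart and muscle form, had 1.90 CPM against 124 for Cox7a2, the form found in most tissues. None of Cox4i2, Cox6b2, Cox7a1, Cox6a1, Cox6b1, Cox4i1, Ndufa4 and Cox7a2l passed in any comparison by the main fit. Of these, Cox6a1 was called between populations in Mock-LLC by limma-voom, with the tumour as a block and without SULT2B1b-LLC Ly6Chigh tumour 1. The supercomplex factor Cox7a2l had 136 to 161 CPM in Ly6Clow and 63.2 to 169 in Ly6Chigh libraries.

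The promoters were searched for sites of 2 families known to bind at genes of respiratory subunits, NRF1 and the ETS factor GABPA. Of the 84 nuclear members 71 had a promoter by symbol in the RefSeq table (GRCm38.p6), 300 bases around the start of the gene. The NRF1 site, whose 10 letters stand in capitals in the Cox6a1 promoter below and read the same on both strands, was in 7 of the 71 (9.86%) and in 1.07% of the 27025 symbols of the table. Searched on both strands with any base allowed in the sixth place, a pattern that includes the strict one, it was in 17 (23.9%) beside 5.19%. The ETS site CCGGAAGT, on either strand, was in 5 (7.04%) beside 4.31%. Printed below are Cox6a1, which holds the NRF1 site, and Cox8a, which has the ETS site in its reverse form at 2 places and is the holder of it that was lower in Ly6Chigh cells of Mock-LLC. Capitals mark the sites.
Cox6a1, chr5:115348909-115349208, minus strand: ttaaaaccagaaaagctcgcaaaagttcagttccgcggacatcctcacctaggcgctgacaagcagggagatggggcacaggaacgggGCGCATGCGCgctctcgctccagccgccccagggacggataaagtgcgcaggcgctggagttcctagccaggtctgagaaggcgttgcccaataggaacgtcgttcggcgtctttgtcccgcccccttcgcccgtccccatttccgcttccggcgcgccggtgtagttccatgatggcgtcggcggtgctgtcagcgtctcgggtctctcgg
Cox8a, chr19:7217567-7217866, minus strand: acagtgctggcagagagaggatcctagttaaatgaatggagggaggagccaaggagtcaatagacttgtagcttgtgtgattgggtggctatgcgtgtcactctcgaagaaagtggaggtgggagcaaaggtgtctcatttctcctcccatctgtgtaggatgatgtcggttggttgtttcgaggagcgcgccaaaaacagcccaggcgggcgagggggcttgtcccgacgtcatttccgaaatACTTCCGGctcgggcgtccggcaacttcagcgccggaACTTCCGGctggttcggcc

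A match is a description of letters and not a shown site of binding. The mt- members have no such promoters, being read from precursors of the mitochondrial genome. Of the nuclear members that were lower in Ly6Chigh cells of Mock-LLC, Atp5g3 and Ndufa6 hold the relaxed NRF1 pattern and Cox8a the ETS site.

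Of 139 genes around the respiratory chain in 9 lists, 2 passed between tumour types in Ly6Chigh cells (1.44%), near the 1.62% of all genes. Between tumour types in Ly6Chigh cells, 0 of 8 genes of complex II and 0 of 22 of the cytochrome c and electron carrier list passed. Many of those 22 are genes of quinone synthesis or of complex III assembly. Nor did any pass of 26 genes of mitochondrial transcription and RNA handling, 21 of the tricarboxylic acid cycle and 12 biogenesis factors. The same held for 17 assembly factors of complex IV and the synthase and for 8 uncoupling proteins and carriers. Of 18 hypoxia and glycolysis genes 1 passed, Vegfa, the vascular growth factor, with 22.8, 31.2, 38.2 and 25.3 CPM in Mock-LLC and 11.0, 10.5, 7.87 and 10.1 in SULT2B1b-LLC (-1.58, SE 0.32, adjusted p = 0.0255). Of the 18, 16 lay below 0, with a median of -0.30 beside 0.03 over all genes. At an unadjusted p under 0.05 there were 11 of the 18, beside 15.6% of all genes. Sod2, the superoxide dismutase of the mitochondrial matrix, was the 1 of 7 antioxidant genes that passed, with 145, 125, 177 and 137 CPM against 208, 220, 195 and 245 (0.57, SE 0.13, adjusted p = 0.0352). In Ly6Clow cells 2 of the 18 passed, both lower in SULT2B1b-LLC: the mitophagy receptor Bnip3 (-1.06, SE 0.20, adjusted p = 0.0190) and the glycolytic kinase Pgk1 (-0.76, SE 0.16, adjusted p = 0.0469). All 18 lay below 0 there, with a median of -0.55. At an unadjusted p under 0.05 there were 15 of the 18, beside 3.74% of all genes. Without overlap 16 lay lower, beside 8.55% of all genes. Over the 9 lists 2 of 139 genes passed in Ly6Clow cells (1.44%), beside 0.638% of all genes. In the same comparison 2 of 7 macrophage markers (C1qa and Apoe) were higher, the list summing to 25442 to 26672 CPM against 15310 to 18828 in Mock-LLC. The neutrophil marker Csf3r was higher and the monocyte marker Vcan lower, those lists summing to 597 to 744 against 502 to 794 CPM and to 1521 to 1718 against 1655 to 2044. The eosinophil list, with no marker past the threshold, summed to 293 to 383 against 198 to 268 CPM. The part of these cells in the hypoxia and glycolysis values was not tested.

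Between populations in Mock-LLC 6 of the 139 list genes passed (4.32%), below the 8.41% of all genes. In SULT2B1b-LLC 1 of 139 did (0.719%), below 2.64%. Between populations, cytochrome c itself went against the nuclear subunits. Cycs had 42.2, 40.6, 37.9 and 41.4 CPM in Ly6Clow and 57.8, 62.5, 56.0 and 58.9 in Ly6Chigh of Mock-LLC (0.54, SE 0.13, adjusted p = 0.0217), and was higher in Ly6Chigh of SULT2B1b-LLC as well (0.71, SE 0.15, adjusted p = 0.0146). It was the 1 of the 22 genes of the cytochrome c and electron carrier list that passed in either. In Mock-LLC the glycolytic genes Eno1 (-0.62, SE 0.12, adjusted p = 0.00622), Gpi1 (-0.45, SE 0.11, adjusted p = 0.0206) and Aldoa (-0.44, SE 0.13, adjusted p = 0.0488) were lower in Ly6Chigh cells and Vegfa higher (1.39, SE 0.32, adjusted p = 0.0133). Grsf1, which binds mitochondrial RNA, was the 1 of 26 genes of mitochondrial transcription and RNA handling that passed in Mock-LLC (2.39, SE 0.60, adjusted p = 0.0229). It had 6.71 to 14.4 CPM in Ly6Clow and 46.1 to 53.8 in Ly6Chigh of Mock-LLC, but 72.3, 8.50, 6.73 and 13.6 CPM in Ly6Chigh of SULT2B1b-LLC, the high value being that of the library that stood apart. None of the 8 complex II, 21 tricarboxylic acid cycle and 12 biogenesis genes passed between populations in either tumour type. Outside the 9 lists, 4 rows were read together: the 2 mitochondrial rRNAs, the tRNA synthetase gene Lars2 and the gene model Gm15564. Lars2 and Gm15564 were lower in Ly6Chigh cells in both tumour types, where 4.86% of all genes were in Mock-LLC and 1.54% in SULT2B1b-LLC. The lowest log2 fold change of the 4 rows was -3.08 in Mock-LLC and -3.45 in SULT2B1b-LLC.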

How the data were processed

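The data are 15 RNA-seq libraries of sorted mouse tumour myeloid cells. Per the labels' protocols, 500 ng of total RNA entered SMART-Seq v4 libraries, read as single 75 nt ends. What the authors deposited are raw counts by gene symbol, not normalized, as whole numbers with unequal column sums show; STAR 2.5.3a, featureCounts and limma are named, per the submitters' processing notes, with mm10 and GRCm38. No source used here gives the annotation release or counting options. How reads of near-identical genes were counted, and whether that affects mt- and some nuclear members, is therefore unknown.

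Members and lists were chosen with earlier results of these data known. Named genes were all mt- members, nuclear members past the threshold (at most 8 per direction, by size of change), the isoform sets, the most abundant member per complex and list members past the threshold (at most 4 per direction); Atp5j, Atp5a1 and the extra members named for their lack of overlap or level were picked after values were seen.

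Counts were fitted in R 4.3.3 with edgeR 4.0.16 (filterByExpr, TMM, robust quasi-likelihood, 4 group means over 15 libraries), adjusted over 13800 genes within each of 5 comparisons, two-sided. Totals were 2617878 to 39284008 counts, and CPM used them after TMM scaling; floors of 3 counts are over the group and cover counting error only. Replicates differed beyond sampling noise (ratios of chi-square to its degrees of freedom were 20.9 to 91.2). Windows and positions come from GENCODE mouse release 21 (GRCm38), in which 90 of 91 members were found, and promoters from RefSeq; 9 nuclear members share 20% or more of their windows and 58 none. Per the labels, same-numbered Ly6Clow and Ly6Chigh libraries of Mock-LLC, or of SULT2B1b-LLC, share a tumour; their deviations from group means correlated at 0.0275 to 0.148. Alternatives were median-ratio factors, library sizes without mt- genes, no filter, DESeq2 1.42.0, limma-voom (limma 3.58.1), non-robust settings, the 2 groups alone, a replicate block and each library left out.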

Additional observations from a re-analysis of the deposited data

Results flagged for a closer look

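In groups of 4 libraries the value farthest out was compared with the others by Dixon's ratio at its 95% limit for 105 values, of which 5 passed; chance flags about 1 in 20. In Ly6Clow cells of Mock-LLC, Atp5sl had its lowest value in tumour 2, 24.7 CPM, beside 27.2 to 27.6 in the rest. In Ly6Chigh cells of Mock-LLC, Cox4i2 had 1.20 CPM in tumour 1 and 0 in the rest, and Cox8a had 154 CPM in tumour 3 beside 174 to 176. In Ly6Chigh cells of SULT2B1b-LLC, Ndufaf3, a complex I assembly factor, had 15.5 CPM in tumour 1, the library with the fewest counts, beside 25.1 to 26.8, and Atp5g3 had 99.7 CPM in tumour 4, the library of that group with the highest nuclear share, beside 84.7 to 86.2.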

How the results depend on the processing

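No gene result past the threshold, in the main fit or in an alternative, changed direction. Changes of sign short of the threshold were not scored. Counts, medians and sums were scored only by size, and 59 of 668 alternatives moved. Between tumour types in Ly6Chigh cells, the 2 nuclear members higher became 0 with no filter, 5 with DESeq2, 0 with the 2 groups alone and 1 with the replicate block, and 1 to 3 when a library was left out. The 5 mt- members lower became 3 with limma-voom, 0 with the 2 groups alone, 3 with the replicate block, and 2 to 5 when a library was left out. Here the block is the tumour number, which Mock-LLC and SULT2B1b-LLC tumours merely share: deviations of same-numbered libraries correlated at -0.169 to 0.0581. Between populations in Mock-LLC, the 11 nuclear members lower became 6 with median-ratio factors, 1 with no filter, 24 with limma-voom, 3 with the 2 groups alone and 2 to 11 when a library was left out; the 5 mt- members higher became 3 with no filter, 3 with the 2 groups alone, 2 with the replicate block and 1 to 5 when a library was left out. The nuclear median of -0.36 became -0.24 with median-ratio factors, and ran from -0.36 to -0.28 when a library was left out. In SULT2B1b-LLC, 0 nuclear members higher became 1 with median-ratio factors, with library sizes without mt- genes, with DESeq2 and with limma-voom, and 0 lower became 1 with DESeq2 and with limma-voom; when a library was left out either count was 0 or 1. For the interaction, 0 nuclear higher became 2 with DESeq2, and the nuclear median of 0.30 ran from 0.14, without SULT2B1b-LLC Ly6Chigh tumour 4, to 0.32, without tumour 1. Summed nuclear CPM was 8990 in place of 9242 in Ly6Clow of SULT2B1b-LLC with plain totals, and 8173 in place of 7727 in Ly6Chigh of Mock-LLC with totals without mt- genes. Of 849 alternatives for the 37 gene results past the threshold, 601 kept the call and 248 lost it, all in the same direction. With the 2 groups alone, genes of all kinds past the threshold went from 223 to 3 between tumour types in Ly6Chigh cells and from 88 to 422 in Ly6Clow cells. The cause of these changes was not tested. The replicate block moved no other count of members by more than 1.5 times; over all genes it moved calls from 223 to 93 between tumour types in Ly6Chigh cells, from 365 to 210 between populations in SULT2B1b-LLC and from 2 to 0 for the interaction. Depth limits the low isoforms: a floor of 3 counts is 1.14 CPM in the shallowest library.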
